A study of Homo sapiens with 12 samples.

Results

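The BCL2 family genes described here are BCL2, BCL2L1, MCL1, BCL2L11, BBC3, PMAIP1, BIK, BMF, BAX and BAK1, which are 10 of the 23459 genes in the count table. They were chosen by name, by matching the Entrez identifiers of the table to human gene symbols. RNA sequencing was performed on MCF10A, a non-transformed human mammary epithelial cell line. All 12 libraries came from MCF10A cells that carried a doxycycline-inducible YAP5SA, a YAP1 allele that the Hippo kinases cannot inhibit, in a lentiviral pInducer vector, at a level that the study puts near the endogenous one. The sample labels give no length of treatment, though the study's methods state how long YAP5SA was induced before analysis. These cells held either a JUN expression vector (JUN) or the empty control vector (vector), and each line was treated with doxycycline at 100 ng/ml (Dox, YAP5SA on) or with its solvent ethanol (EtOH, YAP5SA off). This gave 4 groups of 3 libraries, named here uninduced (vector EtOH) or induced (vector Dox) vector cells and uninduced (JUN EtOH) or induced (JUN Dox) JUN cells. The study describes its replicates as biological, while the sample labels only number them. A p-value here sets a difference against the spread between libraries of the same group, estimated over all 12 libraries. The study's question was how JUN acts on the response to active YAP, and the 4 groups let each factor be read with and without the other.

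The BCL2 family decides whether a cell permeabilises the outer membrane of its mitochondria, the step that releases cytochrome c and starts apoptosis by the intrinsic route. Its anti-apoptotic proteins, BCL2, BCL-XL (from BCL2L1) and MCL1, hold the effectors BAX and BAK (from BAK1) in check. The BH3-only proteins, among them BIM (BCL2L11), PUMA (BBC3), NOXA (PMAIP1), BIK and BMF, bind the anti-apoptotic proteins, and some also activate the effectors directly. In epithelial cells, several BH3-only genes are switched by stress, growth factor withdrawal or loss of attachment.

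The libraries held between 18594867 and 28993487 counts, and 14775 genes passed a filter on low counts, including all 10 members. Levels are given in CPM, counts scaled to library totals with TMM factors, as the mean ± SD of 3 libraries. Fold changes and adjusted p-values come from edgeR's quasi-likelihood test over all 12 libraries with Benjamini-Hochberg adjustment over all 14775 genes, and a gene was called, or said to have risen or fallen, at an adjusted p under 0.05. JUN itself stood at 47.6 ± 10.5 CPM in uninduced vector cells, 189.7 ± 4.15 in induced vector cells, 1279 ± 187 in uninduced JUN cells and 1248 ± 92.3 in induced JUN cells, so that the libraries labelled JUN were far above the others. JUN rose with induction in vector cells (log2 fold change 1.99 ± 0.16 SE, adjusted p = 3.09e-07). YAP1 was at 179.4 ± 10.5 CPM in uninduced vector cells, 236.5 ± 31.5 in induced vector cells, 234.4 ± 20.9 in uninduced JUN cells and 279.9 ± 79.3 in induced JUN cells, and passed the test in neither induction (adjusted p = 0.0819 in vector cells and 0.308 in JUN cells), so its level did not check the induction.

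All 8 mammary epithelial markers on a fixed list were detected, with group means from 5.92 CPM for TP63 to 4615 CPM for KRT5. Of 6 markers of other cell types, PTPRC and PGR had at most 3 counts and COL1A2 at most 1 count in any library. Their summed level nevertheless moved with induction, from 5.29 to 5.84 CPM in uninduced vector cells and 3.75 to 4.89 CPM in uninduced JUN cells to 2.18 to 2.3 CPM in induced vector cells and 2.06 to 2.33 CPM in induced JUN cells. Of the 3 tested, PECAM1 and COL1A1 fell on each induction, and ESR1 passed the test in no comparison. With the JUN vector, PECAM1 fell without induction and none of the 3 was called with it. PECAM1 had 33 to 48 counts in libraries of uninduced vector cells, 7 to 14 in uninduced JUN cells and at most 4 in the induced groups. It passed the filter on low counts through uninduced vector cells, so its differences from that group were favoured by the filter. Of the 8 epithelial markers, 4 fell on each induction, where 14.4% of all genes tested fell in vector cells and 10.3% in JUN cells. KRT14, KRT17 and TP63 fell on both inductions, KRT5 in vector cells alone and CDH1 in JUN cells alone. With the JUN vector 3 rose and 2 fell without induction and 4 rose and 3 fell with it. Over all genes tested, 20.1% rose and 18.9% fell without induction, and 18.4% rose and 17.2% fell with it. KRT14 (log2 fold change 1.201 and 2.07), TP63 (0.94 and 1.25) and ITGA6 (0.47 and 0.57) rose in both states. KRT18 (-0.90 and -1.13) and EPCAM (-1.76 and -1.94) fell in both. Called with induction but not without it were KRT17 (0.58) and CDH1 (-1.14, adjusted p = 5.06e-06). The difference between the inductions was called for CDH1 alone of these markers (-1.03, adjusted p = 0.00541). The part of this in the results was not tested. These are bulk libraries, in which a lower level may mean fewer cells with the transcript or less of it in each cell, and these cannot be told apart.

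On YAP5SA induction most of the 10 genes were called, in both directions among the anti-apoptotic and among the BH3-only genes. In vector cells, BCL2L1, BCL2 and PMAIP1 rose and MCL1, BCL2L11 and BBC3 fell. In JUN cells, BCL2L1, BCL2 and PMAIP1 rose and MCL1, BCL2L11, BBC3 and BMF fell. The calls for the JUN vector were on BH3-only and effector genes. Without induction, PMAIP1 and BMF rose while BBC3 and BAX fell, and with induction BBC3, BAX, BCL2L11 and BIK fell. None of the 3 anti-apoptotic genes was called for the JUN vector in either state.

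The number of members called was set against comparisons in which many genes were called. On induction in vector cells 6 of 10 members were called, 3 higher and 3 lower, where 30.1% of all genes tested were called, 15.6% higher and 14.4% lower. This count ran from 5 to 6 when single libraries were left out, and was 5 by DESeq2. On induction in JUN cells 7 of 10 were called, 3 higher and 4 lower, against 21.4% of all genes, 11.2% higher and 10.3% lower. Without JUN EtOH replicate 2 this count was 4. For the JUN vector without induction 4 of 10 were called, 2 in each direction, against 39% of all genes, 20.1% higher and 18.9% lower, a share near the background. The count was 2 without vector EtOH replicate 3 or without JUN EtOH replicate 1. This count and that for induction in JUN cells both include BMF. BMF passed the filter on low counts through uninduced JUN cells alone, so both of its calls were favoured by the filter. For the JUN vector with induction 4 of 10 were called, all lower, against 35.6% of all genes, 18.4% higher and 17.2% lower, again a total share near the background. It was 2 without vector EtOH replicate 3, either of vector Dox replicate 2 and replicate 3, or JUN Dox replicate 2. The median log2 fold change over the 10 members was 0.17 and -0.01 for induction in vector and JUN cells and -0.06 and -0.09 for the JUN vector without and with induction, while the medians over all genes tested lay between 0.00 and 0.01.

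**Figure D1:**
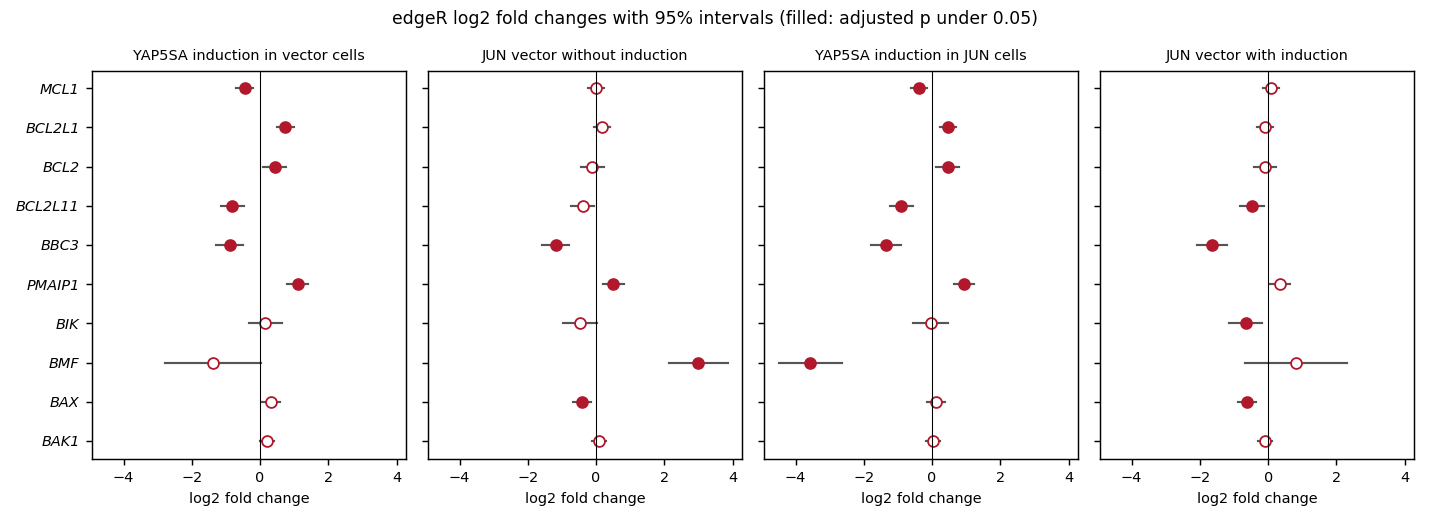
Log2 fold changes (x axis) of the 10 BCL2 family genes (y axis) in the 4 pairwise comparisons, with bars for the 95% interval and filled points for an adjusted p under 0.05 by edgeR's quasi-likelihood test. BMF has the widest intervals and the largest values, 2.997 for the JUN vector without induction and -3.57 for induction in JUN cells, and the 3 anti-apoptotic genes at the top are filled only in the induction panels.

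Among the anti-apoptotic genes, MCL1 encodes a short-lived protein that many BH3-only proteins bind, and it was the most abundant member by far (Entrez 4170, GRCh37 chr1:150533371-150552214, minus strand). Its level was 895, 760 and 812 CPM in uninduced vector cells, 540, 645 and 615 in induced vector cells, 895, 806 and 769 in uninduced JUN cells and 645, 628 and 625 in induced JUN cells. Every induced library lay below every uninduced library. MCL1 fell by 0.46 on the log2 scale in vector cells (SE 0.11, adjusted p = 0.00609) and by 0.38 in JUN cells (SE 0.11, adjusted p = 0.0232). The second call was lost without JUN EtOH replicate 1 (adjusted p = 0.114), JUN EtOH replicate 2 (0.0587), or either of JUN Dox replicate 2 (0.077) and replicate 3 (0.0571). For the JUN vector the log2 fold change was 0.00 without induction (95% interval -0.23 to 0.24) and 0.08 with it (-0.16 to 0.31). The exons of ADAMTSL4 overlap MCL1 on the opposite strand, with a mean of 361.8 counts per library against 16604.1 for MCL1.

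BCL2L1, the source of BCL-XL, moved opposite to MCL1 on induction (Entrez 598, chr20:30252255-30311792, minus strand). It stood at 149, 139 and 154 CPM in uninduced vector cells, 219, 252 and 266 in induced vector cells, 166, 153 and 181 in uninduced JUN cells and 197, 239 and 253 in induced JUN cells. Again induced and uninduced libraries did not overlap, in either line. The log2 fold change was 0.73 ± 0.12 (SE) in vector cells (adjusted p = 0.000214) and 0.47 ± 0.11 in JUN cells (adjusted p = 0.00919, and 0.0555 without JUN EtOH replicate 2). The difference between the inductions was -0.27 on the log2 scale (95% interval -0.61 to 0.08, adjusted p = 0.726). The JUN vector gave 0.18 (-0.07 to 0.42) without and -0.09 (-0.34 to 0.15) with induction.

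BCL2, the founding member of the family, was low in these cells (Entrez 596, chr18:60790579-60987361, minus strand). It measured 7.23, 5.64 and 6.37 CPM in uninduced vector cells, 7.24, 10.2 and 8.55 in induced vector cells, 5.63, 5.61 and 6.57 in uninduced JUN cells and 7.63, 8.86 and 7.92 in induced JUN cells. The groups with and without induction just failed to touch in vector cells and were clear of each other in JUN cells. BCL2 rose by a log2 fold change of 0.43 ± 0.15 (SE, adjusted p = 0.0483) in vector cells and 0.46 ± 0.16 (adjusted p = 0.0494) in JUN cells, both at the edge of the threshold. The first call was lost in 18 of 21 alternative analyses and the second in 17 of 21. In vector cells it was lost without each library except vector EtOH replicate 1 and vector Dox replicate 1 (adjusted p from 0.0542 to 0.207), and in JUN cells without each except vector Dox replicate 1 and vector Dox replicate 2 (0.0518 to 0.167).

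Because MCL1 fell while BCL2L1 rose, the make-up of the anti-apoptotic transcripts shifted. Per exon length, in RPKM, which divides CPM by exon length, MCL1 was at 132 ± 10.9 in uninduced vector cells and 96.4 ± 8.7 in induced vector cells, BCL2L1 at 35.1 ± 1.74 and 58.4 ± 5.74, and BCL2 at 0.508 ± 0.0629 and 0.687 ± 0.117. MCL1 thus made up 78.7% ± 1.06 (SD) of the summed RPKM of the 3 genes in uninduced vector cells, 62% ± 1.19 in induced vector cells, 76.7% ± 2.42 in uninduced JUN cells and 64.8% ± 3.31 in induced JUN cells. The BCL2L1 share went from 21% ± 1.07 to 37.6% ± 1.22 in vector cells and from 23% ± 2.39 to 34.8% ± 3.31 in JUN cells. BCL2 never reached 0.5% of the sum in any library.

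**Figure D2:**
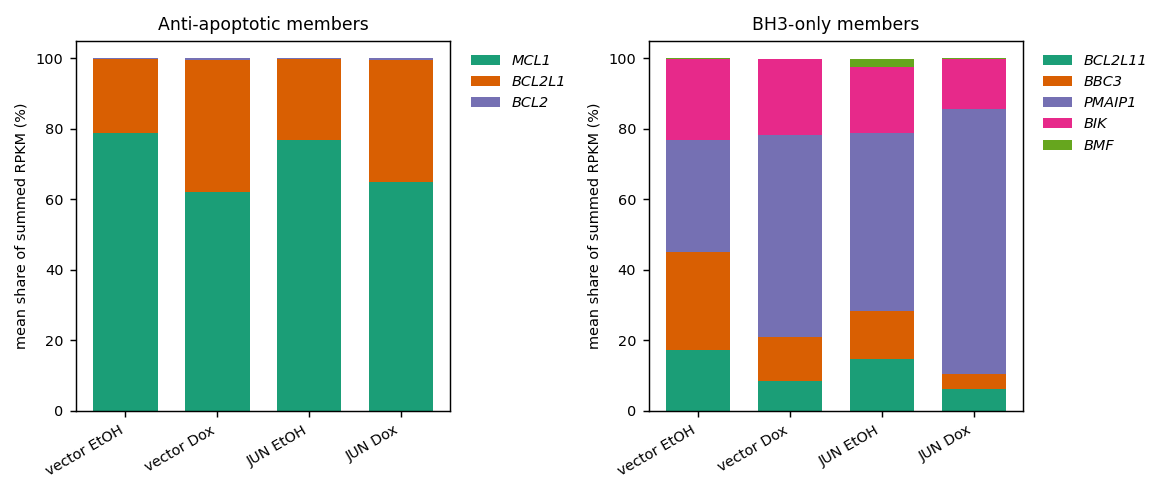
Mean share (y axis, percent of the summed RPKM of each class, 3 libraries per bar) of the anti-apoptotic genes (left) and of the BH3-only genes (right) in the 4 groups. The MCL1 share is lower in both Dox groups (62% and 64.8%) than in the EtOH groups, and the PMAIP1 share is lowest in uninduced vector cells (31.7%) and highest in induced JUN cells (75.1%).

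Of the 5 BH3-only genes, 4 varied more between groups than any other member. The range of the 4 group means of log2 CPM was 3.55 for BMF, 2.52 for BBC3, 1.43 for PMAIP1 and 1.31 for BCL2L11, while it was under 0.75 for each other member and 0.19 for BAK1. The sequences upstream of the start sites of these 4 genes are shown because their transcripts differed most between groups, and in different directions. Each is the 250 bases before a RefSeq start site (GRCh38.p14), written in the direction of transcription. They lie at chr19:47232668-47232917 (BBC3, minus strand), chr18:59899746-59899995 (PMAIP1, plus strand), chr2:111120664-111120913 (BCL2L11, plus strand), and chr15:40108880-40109129 and chr15:40106967-40107216 (the start sites of BMF, minus strand). Capitals mark a match to the AP-1 site, which JUN dimers bind.
BBC3: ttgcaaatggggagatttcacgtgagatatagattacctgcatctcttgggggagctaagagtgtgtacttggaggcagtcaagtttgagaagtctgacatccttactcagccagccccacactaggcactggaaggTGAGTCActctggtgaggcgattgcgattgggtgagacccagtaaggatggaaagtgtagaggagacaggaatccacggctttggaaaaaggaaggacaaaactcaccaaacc
PMAIP1: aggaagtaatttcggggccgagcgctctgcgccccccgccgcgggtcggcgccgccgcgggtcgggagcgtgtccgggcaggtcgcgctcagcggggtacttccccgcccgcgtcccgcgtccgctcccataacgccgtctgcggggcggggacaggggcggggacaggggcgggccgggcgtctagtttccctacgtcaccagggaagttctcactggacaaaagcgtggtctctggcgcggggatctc
BCL2L11: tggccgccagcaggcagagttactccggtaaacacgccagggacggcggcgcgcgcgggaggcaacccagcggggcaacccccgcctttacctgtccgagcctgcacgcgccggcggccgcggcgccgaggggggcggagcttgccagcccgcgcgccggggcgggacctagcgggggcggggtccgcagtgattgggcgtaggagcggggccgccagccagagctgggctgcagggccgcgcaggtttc
BMF, start site 1: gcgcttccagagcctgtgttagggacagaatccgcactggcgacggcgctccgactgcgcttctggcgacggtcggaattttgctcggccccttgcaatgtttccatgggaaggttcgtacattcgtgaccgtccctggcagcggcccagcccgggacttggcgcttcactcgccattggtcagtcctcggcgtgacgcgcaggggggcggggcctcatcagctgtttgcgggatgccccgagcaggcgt
BMF, start site 2: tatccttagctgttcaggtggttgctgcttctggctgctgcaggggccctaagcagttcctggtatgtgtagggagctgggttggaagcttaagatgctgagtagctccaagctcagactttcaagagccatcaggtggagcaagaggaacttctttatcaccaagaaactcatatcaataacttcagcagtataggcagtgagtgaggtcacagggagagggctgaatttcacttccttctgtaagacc
Such windows were searched on both strands for an AP-1 site (TGACTCA or TGAGTCA), a cyclic AMP response element (TGACGTCA) and a TEAD site (GGAATG or CATTCC), at 10 start sites of the 8 members with an entry. BBC3 alone held a match, an AP-1 site whose first base lay 113 bases before the start. Of 35116 windows over all genes, 4.2% held the AP-1 letters, 1.65% the cyclic AMP letters and 11.89% the TEAD letters. A match is a description of letters in a window, and binding was not measured in these libraries.

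BBC3 encodes PUMA, a BH3-only protein that binds every anti-apoptotic member (Entrez 27113, GRCh37 chr19:47724079-47736023, minus strand). It was lower with either manipulation and lowest with both. The libraries read 12.02, 17.11 and 13.95 CPM in uninduced vector cells, 8.81, 8.07 and 6.28 in induced vector cells, 5.28, 7.08 and 6.52 in uninduced JUN cells and 1.96, 2.38 and 3.02 in induced JUN cells. All libraries of uninduced vector cells were above all others and all of induced JUN cells were below all others, while induced vector cells and uninduced JUN cells overlapped. Induction lowered BBC3 by a log2 fold change of -0.89 ± 0.18 (SE) in vector cells (1.86-fold lower, adjusted p = 0.0018) and -1.34 ± 0.21 in JUN cells (2.54-fold lower, adjusted p = 0.000325). The JUN vector gave -1.19 ± 0.18 without induction (2.27-fold lower, adjusted p = 0.000191) and -1.63 ± 0.21 with it (3.1-fold lower, adjusted p = 2.62e-05). Each of these 4 comparisons shares a group of libraries with 2 of the others. Each of the 4 calls held in all 21 alternative analyses. The difference between the 2 inductions was -0.45 on the log2 scale, with a 95% interval of -1.04 to 0.14 (adjusted p = 0.741), so a change of equal size in both lines and a larger one in JUN cells both lay within the interval. The longest BBC3 transcript is 69.66% GC, the highest of the 10. Deviations from the group mean of log2 CPM were set against the GC content of each gene's longest transcript, across genes. They correlated with it in JUN Dox replicate 1 (r = -0.353) and replicate 3 (r = 0.361), with opposite signs. The same signs were seen in JUN EtOH replicate 1 (r = -0.198) and replicate 3 (r = 0.225), while vector libraries ran from -0.082 to 0.069. These values describe the libraries only. With a GC term in the fit the JUN vector with induction gave -1.69.

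PMAIP1 encodes NOXA, a BH3-only protein that binds MCL1 with preference (Entrez 5366, chr18:57567228-57571537, plus strand). It was lowest with neither manipulation and highest with both. It stood at 12.2, 11.5 and 9.96 CPM in uninduced vector cells, 27.4, 22.2 and 22.6 in induced vector cells, 16.9, 17.2 and 13.8 in uninduced JUN cells and 34.2, 32.2 and 24.98 in induced JUN cells. Vector EtOH, uninduced JUN cells and the induced groups followed each other without overlap, and induced vector cells and induced JUN cells overlapped. PMAIP1 rose 2.14-fold on induction in vector cells (log2 fold change 1.10 ± 0.14 SE, adjusted p = 4.53e-05) and 1.91-fold in JUN cells (0.93 ± 0.14, adjusted p = 0.000279). Both calls held in all 21 alternatives, and the inductions differed by -0.17 (95% interval -0.60 to 0.26, adjusted p = 0.935). The JUN vector raised PMAIP1 by 0.50 ± 0.15 without induction (adjusted p = 0.0139). That call was lost without vector EtOH replicate 3 (adjusted p = 0.0629), JUN EtOH replicate 1 (0.0559) or JUN EtOH replicate 2 (0.057). With induction the log2 fold change was 0.34 ± 0.14 (adjusted p = 0.0698), and it passed the threshold without vector Dox replicate 1 (0.0279), without JUN Dox replicate 3 (0.0164), with a GC term (0.0203), with the replicate number as a block (0.0245) and with both terms (0.0162).

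BCL2L11 encodes BIM, which growth factor withdrawal and detachment induce in mammary epithelium (Entrez 10018, chr2:111876955-111926021, plus strand). Its level was 20.15, 18.31 and 18.04 CPM in uninduced vector cells, 9.38, 10.9 and 11.9 in induced vector cells, 14.4, 15.7 and 13.0 in uninduced JUN cells and 9.48, 5.66 and 8.03 in induced JUN cells. Both induced groups were below both uninduced groups, and induced vector cells and induced JUN cells overlapped. BCL2L11 was 1.76-fold lower on induction in vector cells (log2 fold change -0.81 ± 0.16 SE, adjusted p = 0.00126) and 1.86-fold lower in JUN cells (-0.90 ± 0.16, adjusted p = 0.00115), calls that held in all 21 alternatives. The JUN vector gave -0.39 ± 0.16 without induction (adjusted p = 0.0582) and -0.48 ± 0.16 with it (adjusted p = 0.0347). The first of these passed the threshold without vector Dox replicate 1 (0.0409) and without either of JUN Dox replicate 1 (0.0281) and replicate 2 (0.0285), with a GC term (0.0384) and with only the libraries compared (0.0087). The other was lost without vector EtOH replicate 3 (0.0504), vector Dox replicate 2 (0.0671), vector Dox replicate 3 (0.121), or either of JUN Dox replicate 2 (0.151) and replicate 3 (0.0511), and with only the libraries compared (0.115). Exons of the long non-coding RNA gene MIR4435-2HG overlap BCL2L11 on the opposite strand, and it had more counts (a mean of 1400.2 per library against 297.2). MIR4435-2HG went the other way on induction, from 46.5 ± 0.603 to 83.1 ± 3.61 CPM in vector cells and from 50.1 ± 1.17 to 62.5 ± 0.395 CPM in JUN cells. Use of strand in the counting is not given in the sources used here, so reads in the shared stretch could belong to either gene.

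BMF encodes a BH3-only protein tied to the cytoskeleton and to loss of attachment (Entrez 90427, chr15:40380091-40401093, minus strand), and its transcript was close to absent outside one group. It had 4, 7 and 5 counts in uninduced vector cells, 3, 1 and 2 in induced vector cells, 51, 45 and 34 in uninduced JUN cells and 6, 2 and 3 in induced JUN cells. In CPM these were means of 0.242 ± 0.0998, 0.0862 ± 0.043, 1.91 ± 0.325 and 0.165 ± 0.118, where 3 counts, the upper limit that a count of 0 allows, equal 0.107 to 0.15 CPM. uninduced JUN cells stood clear of every other library, and the other groups were near this limit. BMF passed the filter on low counts through uninduced JUN cells alone, so a difference involving that group was favoured by the filter. The calls were also made with no filter. Exons of the long non-coding RNA gene BMF-AS1 overlap BMF on the opposite strand, and BMF-AS1 is not among the genes counted. Use of strand in the counting is not given, so BMF counts could include reads of BMF-AS1.

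Summed over 3 libraries, BMF counts were 130 in uninduced JUN cells against 16 in uninduced vector cells, a ratio after scaling to library size of 8.23 (95% exact interval 4.88 to 14.8, counting error only). They were 11 in induced JUN cells against 130 in uninduced JUN cells, a ratio of 0.0805 (0.0392 to 0.149). The fitted log2 fold changes were 2.997 ± 0.41 (SE, adjusted p = 5.98e-05) for the JUN vector without induction and -3.57 ± 0.43 (adjusted p = 4.07e-05) for induction in JUN cells. Without JUN Dox replicate 1 the latter was -4.23. On induction in vector cells the counts went from 16 to 6, a ratio of 0.371 (0.119 to 0.999), and the fit gave -1.39 ± 0.66 (adjusted p = 0.128). Under induction the JUN vector left 11 counts against 6, a ratio of 1.78 (0.605 to 5.88), and no difference was detectable at this depth (adjusted p = 0.389). BMF in induced JUN cells thus lay within the range of the 6 vector libraries. The inductions differed by -2.18 ± 0.92 on the log2 scale (95% interval -4.14 to -0.23), a value with unadjusted p = 0.0308 and adjusted p = 0.451.

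BIK encodes a BH3-only protein found mainly at the endoplasmic reticulum (Entrez 638, chr22:43506756-43525718, plus strand). It measured 3.12, 4.19 and 3.37 CPM in uninduced vector cells, 4.10, 3.79 and 3.97 in induced vector cells, 2.16, 2.78 and 2.77 in uninduced JUN cells and 1.56, 2.64 and 3.20 in induced JUN cells. The JUN groups lay below the vector group of the same treatment, without overlap, and induction left overlapping groups in both lines. The JUN vector gave a log2 fold change of -0.46 ± 0.23 (SE) without induction (adjusted p = 0.126, and 0.0402 with a GC term) and -0.66 ± 0.23 with it (adjusted p = 0.0366). The latter call was lost with only the libraries compared (0.0882) and without vector EtOH replicate 3 (0.0514), vector Dox replicate 1 (0.0845), vector Dox replicate 2 (0.0544), vector Dox replicate 3 (0.0764), or either of JUN Dox replicate 1 (0.129) and replicate 2 (0.0695). Induction gave 0.16 (95% interval -0.32 to 0.64) in vector cells and -0.04 (-0.55 to 0.47) in JUN cells.

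Per exon length, PMAIP1 had the highest mean of the 5 BH3-only transcripts in each group. In vector EtOH replicate 2, however, BBC3 was above PMAIP1 (5.37 against 5.25 RPKM). By CPM, which takes no account of length, BCL2L11 (18.8) and BBC3 (14.4) were above PMAIP1 (11.2) in uninduced vector cells. In uninduced vector cells the 5 genes stood at 5.14 RPKM for PMAIP1, 4.51 for BBC3, 3.74 for BIK, 2.79 for BCL2L11 and 0.0444 for BMF. In induced JUN cells they stood at 13.9, 0.77, 2.59, 1.15 and 0.0302 RPKM in the same order. The PMAIP1 share of the summed RPKM was 31.7% ± 3.48 (SD) in uninduced vector cells, 57.2% ± 2.12 in induced vector cells, 50.4% ± 3.8 in uninduced JUN cells and 75.1% ± 6.92 in induced JUN cells. The BBC3 share was 27.7% ± 3.2, 12.6% ± 1.61, 13.7% ± 1.8 and 4.22% ± 1.24 in the same groups, and that of BMF was at its highest in uninduced JUN cells, at 2.43% ± 0.41.

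**Figure D3:**
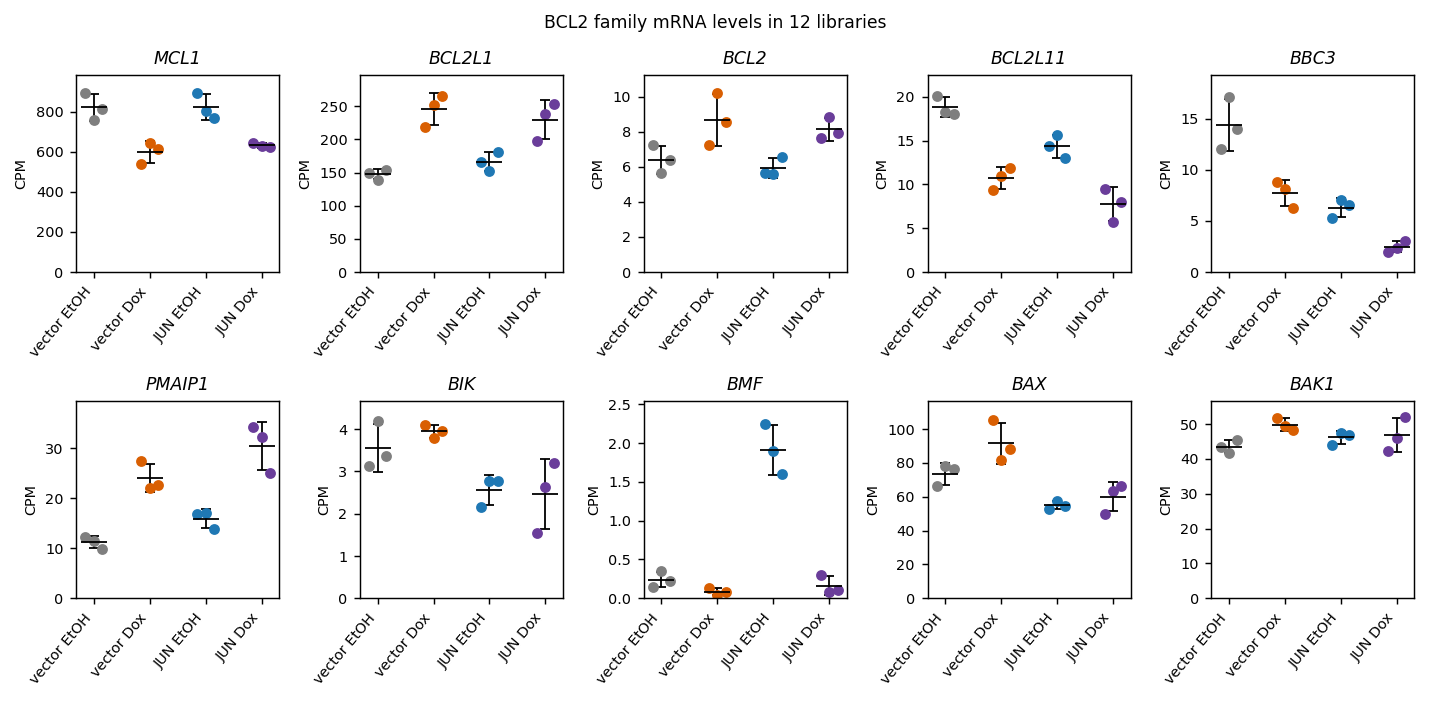
CPM (y axis, linear, from 0) of each BCL2 family gene in the 12 libraries by group (x axis), with a point per library and a bar for the mean and SD of 3 libraries. BBC3 steps down from a mean of 14.4 CPM in uninduced vector cells to 2.45 in induced JUN cells, PMAIP1 steps up from 11.2 to 30.5, and BMF stands above 1.5 CPM only in uninduced JUN cells.

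The effector genes BAX and BAK1 encode the proteins that form the pores. BAX, a cytosolic protein until activated (Entrez 581, chr19:49458072-49465055, plus strand), stood at 66.1, 78.1 and 76.6 CPM in uninduced vector cells, 105.3, 81.7 and 88.0 in induced vector cells, 53.0, 57.4 and 54.7 in uninduced JUN cells and 50.1, 63.7 and 66.3 in induced JUN cells. Every JUN library with the same treatment lay below every vector library. The JUN vector lowered BAX by 0.42 on the log2 scale without induction (log2 fold change -0.42 ± 0.12 SE, adjusted p = 0.0151) and by 0.61 with it (-0.61 ± 0.12, adjusted p = 0.00149, held in all 21 alternatives), and these differed by -0.19 (95% interval -0.56 to 0.18, adjusted p = 0.88). The call without induction was lost without vector EtOH replicate 2 (0.0607), vector EtOH replicate 3 (0.0575) or JUN EtOH replicate 1 (0.0618). Induction gave 0.32 ± 0.12 in vector cells (adjusted p = 0.0631), which passed the threshold without vector Dox replicate 2 (0.0394) or JUN Dox replicate 1 (0.0414) and with a GC term (0.026), and 0.13 ± 0.12 in JUN cells (adjusted p = 0.528).

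BAK1, whose protein sits in the mitochondrial outer membrane (Entrez 578, chr6:33540324-33548070, minus strand), was the steadiest member. Group means were 43.5 ± 1.82 CPM in uninduced vector cells, 49.8 ± 1.77 in induced vector cells, 46.2 ± 1.81 in uninduced JUN cells and 46.8 ± 4.85 in induced JUN cells. The log2 fold change was 0.19 (95% interval -0.01 to 0.40, adjusted p = 0.139) for induction in vector cells, 0.02 (-0.18 to 0.22) in JUN cells, 0.08 (-0.12 to 0.29) for the JUN vector without induction and -0.09 (-0.29 to 0.11) with it. In vector cells the induced and uninduced libraries did not overlap, though the test did not pass. Per exon length, BAX and BAK1 in uninduced vector cells were at 28.5 ± 2.53 and 19.7 ± 0.825 RPKM, between BCL2L1 and PMAIP1.

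Whether JUN changed the response to YAP5SA was asked with the interaction, which subtracts the log2 fold change of induction in vector cells from that in JUN cells. None of the 10 members was called by edgeR, where 1.12% of all genes were, 0.291% higher and 0.826% lower. BMF alone had an unadjusted p under 0.05, and DESeq2 called none either. The 95% interval for BAK1 was the narrowest, from -0.46 to 0.11 on the log2 scale, and that for MCL1 ran from -0.26 to 0.41, so equal responses were not shown.

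**Figure D4:**
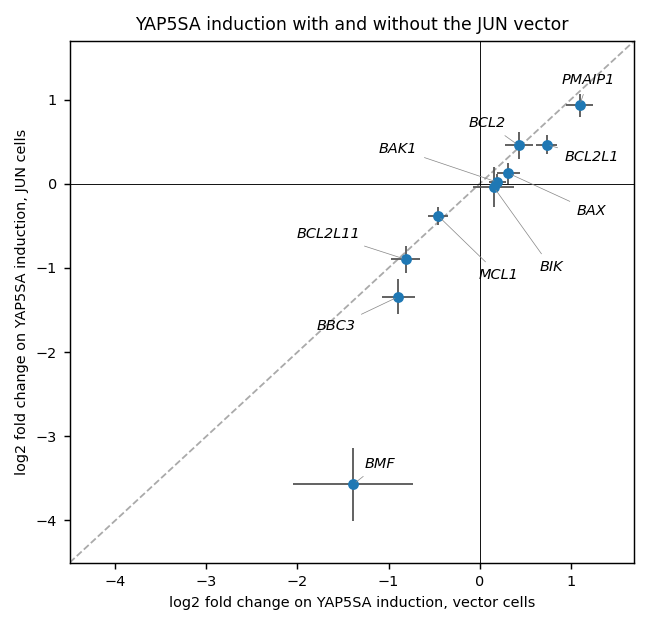
Log2 fold change on YAP5SA induction in vector cells (x axis) against that in JUN cells (y axis) for the 10 BCL2 family genes, with bars for 1 SE and a dashed line of equal change. Most genes lie near the line, and BMF lies farthest below it, at -1.39 and -3.57.

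Beyond the 10 members, 51 genes of the apoptosis machinery on 5 fixed lists were examined, of which 48 were tested. On induction in vector cells 6 rose and 8 fell, on induction in JUN cells again 6 rose and 8 fell, for the JUN vector without induction 18 rose and 9 fell, and with induction 16 rose and 10 fell. These are 14, 14, 27 and 26 of the 48 genes, beside 30.1%, 21.4%, 39% and 35.6% of all genes tested in the same comparisons. The shares over all genes serve as the background for each list that follows. The median log2 fold changes of the 48, in that order, were 0.04, -0.07, 0.19 and 0.08. For the interaction none was called by edgeR, 5 had an unadjusted p under 0.05, and DESeq2 called 1.

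The other BCL2 family genes, 11 of 13 tested, had no call upward and 2 downward on induction in vector cells, 1 downward in JUN cells, 4 up and 2 down for the JUN vector without induction and 3 up and 3 down with it. These were 2, 1, 6 and 6 of 11, beside 30.1%, 21.4%, 39% and 35.6% of all genes. BCL2A1, an anti-apoptotic member and NF-kB target, had 5 counts over 3 libraries in uninduced vector cells and 9 in induced vector cells, against 169 in uninduced JUN cells and 130 in induced JUN cells. It rose with the JUN vector without induction (log2 fold change 4.99 ± 0.68 SE, adjusted p = 6.25e-05) and with it (3.79 ± 0.63, adjusted p = 0.000337), values that depend on the few counts in vector cells. Without vector EtOH replicate 3 the first was 5.69, and without vector Dox replicate 1 the other was 5.28. The vector libraries had at most 7 counts, so BCL2A1 passed the filter on low counts through the JUN groups alone. Its differences between JUN and vector cells were thus favoured by the filter. HRK, a BH3-only gene known from neurons, went from 1.64 ± 0.264 CPM in uninduced vector cells and 2.45 ± 0.217 in induced vector cells to 0.542 ± 0.247 in uninduced JUN cells and 0.259 ± 0.3 in induced JUN cells. It was lower with the JUN vector by a log2 fold change of -1.59 ± 0.45 without induction (adjusted p = 0.0126, and 0.0678 without JUN EtOH replicate 1) and -3.24 ± 0.49 with it (adjusted p = 0.000146). HRK had 2 to 14 counts in the libraries of induced JUN cells, and without JUN Dox replicate 2 the last value was -4.79. HRK passed the filter through the vector groups, where it was higher, so its differences were favoured as well. BNIP3L, a mitophagy receptor of the outer membrane, rose with the JUN vector under induction, from 13.7 ± 1.64 to 41.1 ± 2.31 CPM (1.58 ± 0.11, adjusted p = 8.39e-08), as it did without induction (1.22 ± 0.11, adjusted p = 8.34e-07), and it fell on induction in vector cells (-0.88 ± 0.11) and in JUN cells (-0.52 ± 0.11).

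Downstream of the mitochondria, 2 of the 10 apoptosome and caspase genes rose and none fell on induction in vector cells, and 3 rose and 4 fell for the JUN vector without induction. In JUN cells 2 rose and 1 fell on induction, and with induction the JUN vector gave 1 up and 4 down. The calls were 2 of 10 beside 30.1% of all genes and 3 beside 21.4% on induction in vector and JUN cells, and 7 beside 39% and 5 beside 35.6% for the JUN vector without and with induction. HTRA2, a mitochondrial protease that counters inhibitors of apoptosis, went from 41.1 ± 5.82 to 60.6 ± 9.33 CPM on induction in JUN cells (log2 fold change 0.56 ± 0.12 SE, adjusted p = 0.00405) and gave 0.31 ± 0.12 in vector cells (adjusted p = 0.0618), and its exons overlap AUP1 and LOXL3 on the opposite strand. Of 5 tested inhibitors of apoptosis, 3 rose and 1 fell with the JUN vector in each state, and 1 moved each way on each induction. These were 4 of 5 beside 39% and 35.6% of all genes, and 2 of 5 beside 30.1% and 21.4%. BIRC3, a ubiquitin ligase of that group, stood at 114.9 ± 16.8 CPM in uninduced vector cells, 79.9 ± 12.3 in induced vector cells, 400.9 ± 44.3 in uninduced JUN cells and 158.8 ± 29.9 in induced JUN cells. It rose with the JUN vector without induction (1.80 ± 0.16, adjusted p = 9.2e-07) and with it (0.99 ± 0.16, adjusted p = 0.000235), and fell on induction in JUN cells (-1.34 ± 0.16, adjusted p = 3.15e-05) and in vector cells (-0.52 ± 0.16, adjusted p = 0.0207).

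In the death receptor arm, 5 of 10 genes rose and none fell with the JUN vector in each state, while 1 rose and 2 fell on each induction. Over all genes, the share that rose with the JUN vector was 20.1% uninduced and 18.4% induced, and the 3 of 10 called on each induction stood beside 30.1% and 21.4%. TNFRSF10A, a TRAIL receptor, went from 25.4 ± 1.13 to 39.8 ± 5.05 CPM on induction in vector cells (log2 fold change 0.65 ± 0.10 SE, adjusted p = 0.000266) and rose in JUN cells too (0.53 ± 0.10, adjusted p = 0.00227). The initiator caspase gene CASP10 went from 2.11 ± 0.204 to 0.767 ± 0.216 CPM (-1.45 ± 0.26, adjusted p = 0.000677), and it fell in JUN cells as well (-1.09 ± 0.23, adjusted p = 0.0037). Exons of TNFRSF10A overlap its divergent transcript on the opposite strand.

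Of 12 regulators of BCL2 family genes and proteins, 2 rose and 3 fell on induction in each line, 3 rose and 2 fell with the JUN vector without induction, and 4 rose and 2 fell with it. These were 5 of 12 in the first 3 comparisons, beside 30.1%, 21.4% and 39% of all genes, and 6 beside 35.6%, so the shares for the JUN vector without induction and for all genes were close. FOXO1, a factor known to drive BCL2L11 and other BH3-only genes, went from 95.1 ± 12.6 to 32.7 ± 7.96 CPM on induction in vector cells (log2 fold change -1.54 ± 0.16 SE, adjusted p = 5.02e-06) and from 172.9 ± 10.7 to 45.1 ± 5.72 CPM in JUN cells (-1.94 ± 0.16, adjusted p = 1.01e-06). FOXO1 rose with the JUN vector without induction (0.86 ± 0.16, adjusted p = 0.000648) and with it (0.47 ± 0.16, adjusted p = 0.0349). A link between FOXO1 and the members was not tested. E2F1, a cell cycle factor, rose on induction in JUN cells, from 25.7 ± 1.67 to 36.98 ± 3.79 CPM (0.53 ± 0.11, adjusted p = 0.00358), and in vector cells (0.56 ± 0.11, adjusted p = 0.00139). Protein levels and factor activity were not measured in these libraries.

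**Figure D5:**
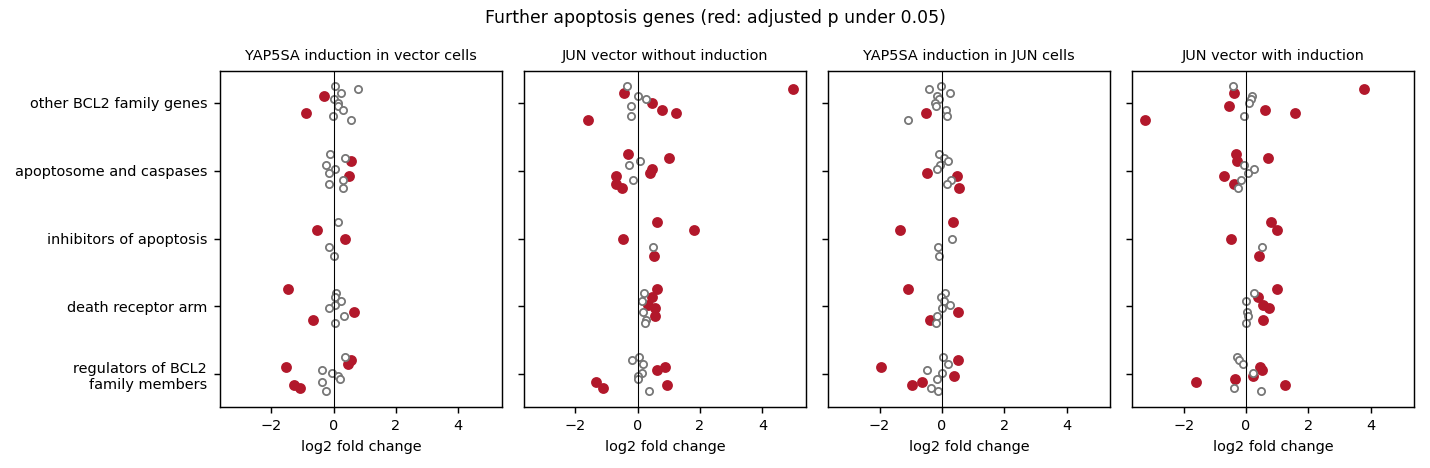
Log2 fold changes (x axis) of 48 further apoptosis genes, grouped by list (y axis), in the 4 pairwise comparisons, with a point per gene, red at an adjusted p under 0.05. More points are red in the JUN panels (27 and 26) than in the induction panels (14 and 14), as over all genes tested (39% and 35.6% against 30.1% and 21.4% called), and the death receptor genes called in the JUN panels all lie to the right of 0.

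The genes whose pattern over the 12 libraries was most like that of BMF, the member with the widest range, were LYPD3, ITGB8 and GGT8P. The root-mean-square difference from BMF, after centring each gene's log2 CPM, was 0.501, 0.578 and 0.592. LYPD3, an epithelial surface protein, stood at 9.94 ± 0.858, 3.69 ± 0.426, 29.4 ± 4.97 and 5.36 ± 0.488 CPM in uninduced vector cells, induced vector cells, uninduced JUN cells and induced JUN cells. ITGB8, an integrin subunit, stood at 24.7 ± 6.33, 13.3 ± 3.84, 95.5 ± 20.7 and 21.9 ± 6.55 CPM in the same groups. Both were highest in uninduced JUN cells and lowest in induced vector cells, at levels well above those of BMF. GGT8P is a pseudogene with near-identical relatives and at most 30 counts in a library, so its value is uncertain. The ranking was made on all 14775 genes with no test.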

How the data were processed

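RNA sequencing of polyadenylated RNA (75-base single reads) was performed by the authors on 12 libraries. They trimmed reads with cutadapt (4.2 in the submitters' processing notes), aligned them to hg19 with Bowtie2 (2.3.5.1 in the same notes) and deposited whole-number counts per Entrez gene made with countOverlaps, with no normalization. The gene annotation and the use of strand are not given in the sources used here. Depth ranged from 18594867 to 28993487 counts, and intervals on counts cover counting error only.

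Symbols came from a RefSeq table (99.4% of 23459 rows), positions and exon lengths from GENCODE on GRCh37, the hg19 assembly, and upstream sequences from RefSeq on GRCh38.p14. Genes were kept by edgeR's filterByExpr (minimum count 10, minimum total 15). edgeR 4.0.16 (TMM factors, robust quasi-likelihood, 4 group means, R 4.3.3) tested 14775 genes, and the common biological coefficient of variation was 12.5%. The scripts were tested on simulated data. Per-library CPM used the TMM-scaled totals, and RPKM divided CPM by exon length. Alternatives were DESeq2 1.42.0, other scaling, other filters, a GC term, a replicate block, only the libraries compared, and leaving out each library. The text names all 10 members, the manipulated genes, the 2 highest and 2 lowest called genes of the further lists in each pairwise comparison and any with a called interaction, and the 3 genes most like the member with the widest range. Some genes that this rule names are not reported here. Members and lists were chosen with earlier results of these data known.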

Additional observations from a re-analysis of the deposited data

How the results depend on the processing

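For the BCL2 family genes, 1028 values were recomputed, and 930 kept their direction and their side of the threshold, 59 lost a call, 16 gained one and 23 changed sign. All calls of BBC3 held in the alternatives run, as did those of PMAIP1, BCL2L11, BCL2L1 and MCL1 for induction in vector cells, those of PMAIP1 and BCL2L11 for induction in JUN cells, those of BMF and that of BAX for the JUN vector with induction. The number of members called for the JUN vector without induction was 4 and ran from 2 to 5 when single libraries were left out. For induction in vector cells it was 6 and ran from 5 to 6. For induction in JUN cells it was 7 and ran from 4 to 7, and for the JUN vector with induction it was 4 and ran from 2 to 4, and was 2 with only the libraries compared. The cause was not tested.

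The sign changes were in values near 0 that passed no test. For the JUN vector without induction, MCL1 was 0.002 on the log2 scale, -0.017 with upper-quartile factors, -0.001 with a GC term, -0.001 with a GC term and replicate block, and -0.062 to 0.067 when single libraries were left out. For induction in JUN cells, BAK1 was -0.008 with upper-quartile factors, -0.011 when genes under a mean of 5 CPM were left out, and -0.062 to 0.083 without single libraries, where BIK ran from -0.28 to 0.185. With induction, the JUN vector gave -0.193 to 0.052 for BCL2 and -0.169 to 0.01 for BCL2L1. The interaction ran from -0.079 to 0.166 for BCL2, -0.232 to 0.094 for BCL2L11 and -0.437 to 0.048 for BIK.

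Over all genes, the interaction gave 165 calls, 340 by DESeq2, 278 with a GC term, 250 with a GC term and replicate block, 97 without vector EtOH replicate 3, 107 without JUN EtOH replicate 1 and 99 without JUN EtOH replicate 2. Other counts fell by more than 1.5 times in 5 cases. They were 3823 for the JUN vector without induction without JUN EtOH replicate 1 (5766), 2082 for induction in JUN cells without JUN EtOH replicate 2 (3168), 3439 for the JUN vector with induction with only the libraries compared (5267), 17 of the further genes there (26), and 9 of them for induction in vector cells without vector EtOH replicate 1 (14). Of the further genes, the interaction called 1 by DESeq2, 2 with a GC term, 1 without vector Dox replicate 1 and 1 without JUN Dox replicate 2.

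Same-numbered libraries of different groups deviated together only weakly (correlations from -0.258 to 0.466, median 0.088). Differently numbered ones ran from -0.47 to 0.315, with a median of -0.048. Of 12 libraries, 7 correlated best with their own number, so these values do not decide whether the numbers are pairs. The main fit did not take them as pairs, and a replicate block was an alternative. With the replicate block the call of BCL2 was lost in both inductions (adjusted p = 0.0641 and 0.0618) and PMAIP1 was called for the JUN vector with induction (0.0245). Another scaling moved the median of all genes by at most 0.048 in size. BIK and BMF were not tested at a mean of at least 5 CPM, nor BMF in fits of only libraries without JUN EtOH. Depth limits BMF most, since 3 of its 4 groups had at most 7 counts in a library.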
